A study of Mus musculus with 11 samples.

Results

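BH3-only proteins are the part of the BCL2 family that starts death through mitochondria. The 8 genes described here are Bcl2l11 (BIM), Bmf, Bbc3 (PUMA), Pmaip1 (NOXA), Bad, Bid, Bik and Hrk. Each was read through the 1 probe set whose single gene symbol on the platform is that gene, so 8 probe sets of 28939 tested were described. Levels were measured by Affymetrix whole-transcript array, 1 array per sample, from 300 ng of total RNA of the thymus of FVB mice. The 11 samples fall into 4 groups, called biological replicates in their titles. Dnmt3b-deficient lymphomas (n = 3) carried EμSR-tTA with both Teto-MYC and Teto-Cre, the reporter Rosa26LOXPEGFP, and were Dnmt3b-/-. Wild-type lymphomas (n = 3) carried EμSR-tTA, Teto-MYC and Rosa26LOXPEGFP, had a floxed Dnmt3b gene (Dnmt3bF/F) and no Cre. Pre-tumor Dnmt3b-deficient thymocytes (n = 2) had the same genotype as the Dnmt3b-deficient lymphomas and were taken at 24 days of age. Normal thymocytes (n = 3) carried EμSR-tTA, Teto-Cre and Rosa26LOXPEGFP, were Dnmt3b+/+ and had no MYC transgene; they too were taken at 24 days. All 4 groups carry the activator EμSR-tTA, which drives the Teto transgenes in blood cells, and the EGFP reporter Rosa26LOXPEGFP. Per the labels' protocols, cells with EGFP were sorted from pre-tumor thymi, tumors went unsorted into TRIzol when disease was apparent, and the labels do not make clear whether the normal thymocytes were sorted. Each comparison with normal thymocytes therefore differs at once in the labelled MYC transgene and in other features (Dnmt3b genotype, Cre, stage or sorting), which cannot be told apart. The lymphoma groups differ at once in Dnmt3b and in Teto-Cre, and these cannot be told apart in the comparison of lymphoma genotypes.

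In a healthy cell, survival proteins such as BCL2, BCL-XL and MCL1 hold the pore-forming proteins BAX and BAK in check. BH3-only proteins are made or released under stress and bind the survival proteins through a short helix, the BH3 domain; BIM, PUMA and the cleaved form of BID can also engage BAX and BAK directly. In the mouse thymus BIM is known for removing thymocytes that recognise self-antigen and for death after cytokine withdrawal. MYC is known to sensitise cells to death, and loss of BH3-only genes speeds MYC-driven lymphoma in mouse models.

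The samples matched their label as T lineage cells. The 11 measured T lineage markers of 12 listed had a mean log2 level of 8.43 to 8.79 in Dnmt3b-deficient lymphomas, 8.66 to 9.04 in wild-type lymphomas, 9.17 to 9.51 in pre-tumor thymocytes and 10.19 to 10.37 in normal thymocytes, and none was at the floor of the table in any sample. The floor is log2 of 10, 3.32, below which no value is given; no BH3-only gene reached it in any sample. Dnmt3b itself gave 5.26 to 5.49, 5.36 to 5.70, 5.07 to 5.24 and 5.22 to 5.31 in the groups in that order, and since no source used here says whether its probe set covers the deleted part, it does not check the genotypes. The Myc probe set gave 4.29 to 4.93 in Dnmt3b-deficient lymphomas, 4.83 to 5.62 in wild-type lymphomas, 5.87 in both pre-tumor samples and 7.77 to 8.13 in normal thymocytes. It was thus lower in every sample labelled with the Teto-MYC transgene than in every normal one. No source used here says whether this mouse Myc probe set detects the transgene, so presence of the transgene rests on the labels alone; these 3 groups are called the groups labelled Teto-MYC. Array medians lay between 4.55 and 4.62, and arrays of a group correlated at 0.973 to 0.991 over probe sets. The labels name no batch. All differences below are on the log2 scale and all adjusted p-values are from limma with Benjamini-Hochberg adjustment over the 28939 probe sets; a gene counts as changed under 0.05.

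Bmf fell and Bid rose in each of the 3 groups labelled Teto-MYC against normal thymocytes, and Bcl2l11 fell in the wild-type lymphomas. In Dnmt3b-deficient lymphomas 3 of 8 genes changed (Bmf and Bad lower, Bid higher), beside 20.2% of all probe sets (9.7% higher, 10.5% lower). In wild-type lymphomas 3 of 8 changed (Bmf and Bcl2l11 lower, Bid higher), beside 19.9% of all (9.58% higher, 10.3% lower). In pre-tumor thymocytes 2 of 8 changed (Bmf lower, Bid higher), beside 19.6% (9.69% higher, 9.88% lower). An unadjusted p under 0.05 was reached by 6, 6 and 5 of the 8, beside 30.3%, 31.2% and 31.4% of all. The median difference of the 8 genes was -0.38, -0.36 and -0.43 in these comparisons, while that of all probe sets was 0, 0 and -0.02. These 3 comparisons share the normal samples. Of the 35512 probe sets deposited, 5475 lay at the floor on all arrays, whereas no member reached it in any sample. Those among the 28939 tested differ by 0 and cannot be called or lack overlap. They lower the shares given for all probe sets and draw the median of all towards 0. Between the lymphoma genotypes none of the 8 passed limma, beside 0.00691% of all probe sets (0.00346% in each direction), though 2 of 8 had an unadjusted p under 0.05, beside 6.3%. Between Dnmt3b-deficient lymphomas and pre-tumor thymocytes none passed either, beside 0.0691% of all (0.0311% higher, 0.038% lower), and none had an unadjusted p under 0.05, beside 9.43%.

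**Figure D1:**
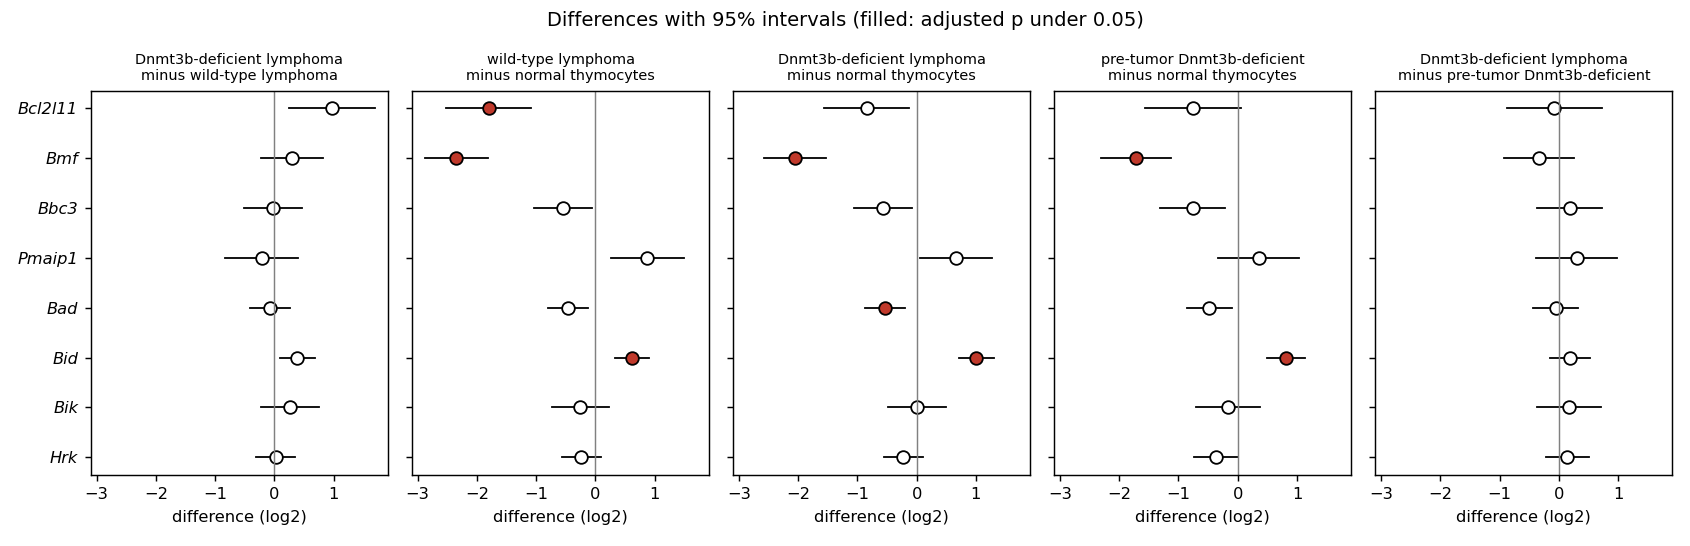
Differences in log2 level (x axis) of the 8 BH3-only genes (rows) in the 5 comparisons (panels), with 95% intervals from limma; filled points had an adjusted p under 0.05. Bmf is filled to the left and Bid to the right of 0 in all 3 comparisons with normal thymocytes, and no point is filled in the comparison of the lymphoma genotypes.

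Because the gene deleted in this study places methyl groups on cytosines followed by guanine (CpG), the promoters of the 3 genes with the largest changes are shown, with each CpG in capitals. They are RefSeq sequences of build GRCm38.p6, 250 bases before to 50 after a gene start, and for a gene with several starts the window with most CpG was taken. The windows are chr2:128127325-128127624 (plus strand) for Bcl2l11, chr2:118549637-118549936 (minus strand) for Bmf and chr6:120916775-120917074 (minus strand) for Bid.
Bcl2l11: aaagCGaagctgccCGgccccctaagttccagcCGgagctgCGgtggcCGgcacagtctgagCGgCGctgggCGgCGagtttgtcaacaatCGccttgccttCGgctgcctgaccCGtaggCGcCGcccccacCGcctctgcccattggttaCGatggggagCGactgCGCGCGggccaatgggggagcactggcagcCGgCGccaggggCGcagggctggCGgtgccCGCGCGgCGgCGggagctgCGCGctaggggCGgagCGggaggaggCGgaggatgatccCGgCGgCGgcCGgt
Bmf: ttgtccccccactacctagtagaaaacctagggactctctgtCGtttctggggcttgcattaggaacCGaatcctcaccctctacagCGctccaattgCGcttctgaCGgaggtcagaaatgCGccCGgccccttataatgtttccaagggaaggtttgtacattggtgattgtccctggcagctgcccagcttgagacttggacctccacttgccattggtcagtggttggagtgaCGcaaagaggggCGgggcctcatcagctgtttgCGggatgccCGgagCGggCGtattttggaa
Bid: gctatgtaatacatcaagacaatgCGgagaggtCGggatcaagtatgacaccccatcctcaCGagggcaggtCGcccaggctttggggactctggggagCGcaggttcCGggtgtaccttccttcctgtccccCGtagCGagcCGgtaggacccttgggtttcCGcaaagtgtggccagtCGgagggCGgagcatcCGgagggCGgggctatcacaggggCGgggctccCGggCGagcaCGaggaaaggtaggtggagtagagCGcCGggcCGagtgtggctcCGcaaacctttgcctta

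These windows hold 38 CpG in Bcl2l11, 22 in Bid and 13 in Bmf. Over all 32851 windows in the table the median is 7 and the upper quartile 20; 95% of windows hold fewer than the Bcl2l11 window, 76.9% fewer than that of Bid and 62.1% fewer than that of Bmf. The other 2 Bmf starts hold 6 and 8 CpG, and the other Bcl2l11 start holds 27. Of the 8 genes 6 matched the table, with 12 windows. The E-box CACGTG, the palindromic site that MYC with MAX is known to bind and which itself contains a CpG, occurs in 7.15% of all windows and in 1 of the 12, at a start of Bbc3. The forkhead motif TGTTTAC, searched on both strands and known to be bound by FOXO factors, occurs in 3.65% of all windows and in 2 of the 12, at the second start of Bbc3 and at the first start of Bcl2l11. A match is a description of letters, and DNA methylation was not measured here.

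Bcl2l11 encodes BIM, which binds all the main survival proteins. Its log2 level was 7.83, 6.49 and 6.83 in Dnmt3b-deficient lymphomas, 6.14, 6.23 and 5.88 in wild-type lymphomas, 7.08 and 7.18 in pre-tumor thymocytes, and 7.91, 7.77 and 7.99 in normal thymocytes. All wild-type lymphomas were below every other sample, and Dnmt3b-deficient replicate 1 lay within the normal range. In wild-type lymphomas Bcl2l11 fell by 1.80 against normal thymocytes (SE 0.31, 95% interval -2.52 to -1.08, adjusted p = 0.00654), a level 0.287 times that of normal. It was called with any 1 sample left out.

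In Dnmt3b-deficient lymphomas the difference of Bcl2l11 from normal was -0.84 (SE 0.31, interval -1.56 to -0.12, adjusted p = 0.109). Without Dnmt3b-deficient replicate 1 it was -1.23 and passed (adjusted p = 0.00321). In pre-tumor thymocytes it was -0.76 (interval -1.56 to 0.05, adjusted p = 0.185), and since all groups share an estimate of the spread, it passed without that same lymphoma (0.0151); with only the 2 groups fitted it also passed (0.0392).

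Between the genotypes all 3 Dnmt3b-deficient lymphomas were above all 3 wild-type ones. The means were 7.05 ± 0.70 in Dnmt3b-deficient and 6.09 ± 0.18 in wild-type lymphomas (SD, n = 3 each), a difference of 0.97 (SE 0.31, interval 0.25 to 1.69). It did not pass limma (adjusted p = 0.70), so a call against normal in 1 genotype and not in the other is not shown to be a difference between genotypes. Without replicate 1 the difference was 0.58 (adjusted p = 0.493). Bcl2l11 and Bid were the 2 of 8 genes with no overlap between the genotypes (25%), where 7.98% of all probe sets had none. In order of mean, normal thymocytes were highest, then pre-tumor thymocytes, Dnmt3b-deficient lymphomas and wild-type lymphomas; of these neighbours no pair passed the test.

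The spread of Bcl2l11 among Dnmt3b-deficient lymphomas (SD 0.70) exceeded that of 97.7% of probe sets in the same samples. In its other groups the SD was 0.18, 0.07 and 0.11, larger than 68.2%, 48.2% and 48.2% of probe sets. The lymphoma with the high Bcl2l11 also had the highest Bmf (5.65), Bbc3 (4.53), Bad (5.26), Bik (5.22) and Hrk (6.46) of its group. Its Pmaip1 (5.63) was the lowest there and its Bid (7.09) lay between. This sample had the lowest mean of T lineage markers in its group (8.43, beside 8.79 and 8.72) and of 5 mature T cell markers (6.74, beside 7.68 and 8.01). It had the highest mean of double-positive thymocyte markers there (6.04, beside 5.75 and 5.79). Neutrophil markers were high in replicate 2 (6.40) and not in replicates 1 and 3 (4.16 and 4.51). The part of these cells in the level of Bcl2l11 was not tested.

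**Figure D2:**
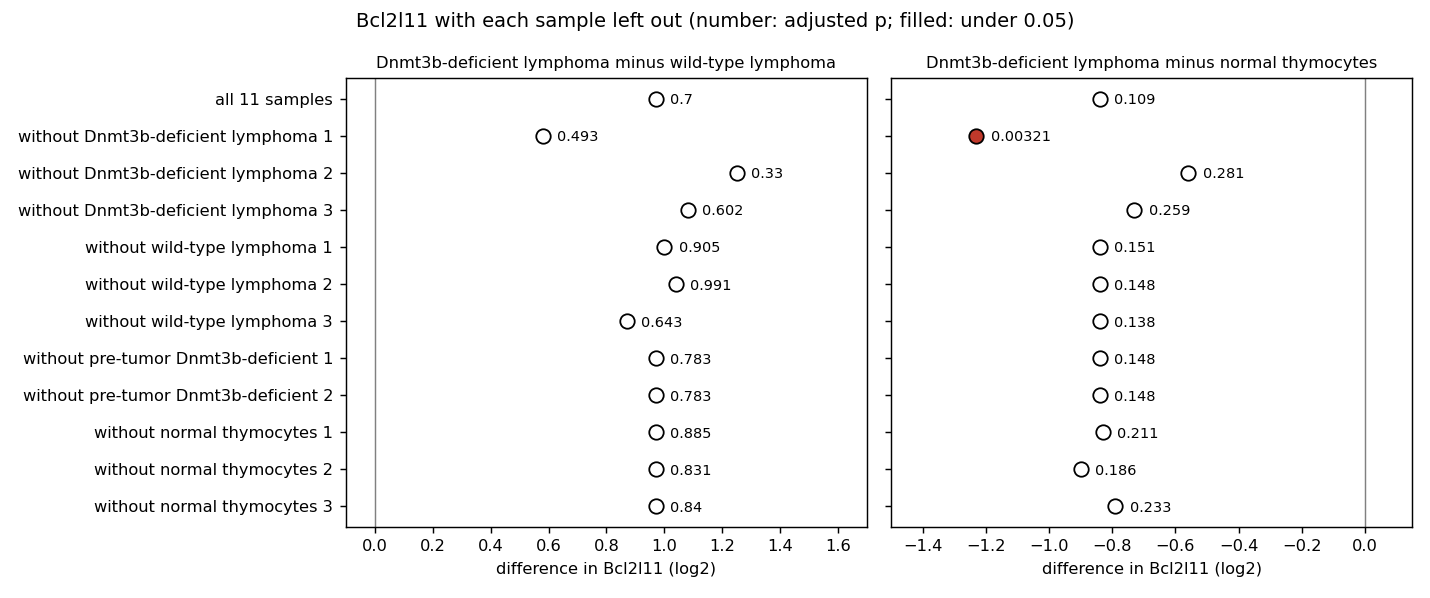
Difference in Bcl2l11 (x axis, log2) between Dnmt3b-deficient and wild-type lymphomas (left) and between Dnmt3b-deficient lymphomas and normal thymocytes (right), with all 11 samples and with each left out in turn (rows). Numbers are limma adjusted p-values and filled points are under 0.05; leaving out Dnmt3b-deficient replicate 1 gives 0.58 on the left and -1.23 on the right, the 1 filled point.

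Bmf encodes a protein that is held at the cytoskeleton by a dynein light chain in healthy cells. Its log2 level was 5.65, 5.22 and 5.41 in Dnmt3b-deficient lymphomas, 4.85, 5.17 and 5.39 in wild-type lymphomas, 6.15 and 5.37 in pre-tumor thymocytes, and 7.47, 7.57 and 7.40 in normal thymocytes. Every sample labelled Teto-MYC was below every normal sample, and the lymphoma genotypes overlapped. Bmf fell in each, with a difference from normal of -2.05 for Dnmt3b-deficient lymphomas (SE 0.22, adjusted p = 0.00109), -2.35 for wild-type lymphomas (SE 0.22, adjusted p = 0.000878) and -1.72 for pre-tumor thymocytes (SE 0.25, adjusted p = 0.00479). Its level was thus 0.241, 0.197 and 0.304 times that of normal thymocytes.

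All 3 falls of Bmf passed with any 1 sample left out; the pre-tumor one was lost with only the 2 groups fitted (adjusted p = 0.0573). The 2 pre-tumor samples differed by more than those of any other group (SD 0.55, larger than that of 97% of probe sets there). Below normal thymocytes the order was pre-tumor, Dnmt3b-deficient and wild-type, and neither step passed. Dnmt3b-deficient lymphomas differed from pre-tumor thymocytes by -0.34 (interval -0.92 to 0.25, adjusted p = 0.794) and from wild-type lymphomas by 0.29 (interval -0.23 to 0.82, adjusted p = 0.93).

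Markers of double-positive thymocytes, the main cell of the normal thymus, were lower on average in every sample labelled Teto-MYC than in every normal one, as Bmf was; Bcl2l11 differed from this in Dnmt3b-deficient replicate 1, which lay in the normal range. The 7 measured of 8 listed had a mean level of 5.75 to 6.04 in Dnmt3b-deficient lymphomas, 5.03 to 5.64 in wild-type lymphomas, 7.02 to 8.14 in pre-tumor thymocytes and 9.25 to 9.50 in normal thymocytes. Of them 6, 6 and 5 fell in Dnmt3b-deficient lymphomas, wild-type lymphomas and pre-tumor thymocytes against normal. In the same order 10.5%, 10.3% and 9.88% of all probe sets were called lower. The pre-tumor count was 3 without any 1 normal replicate, 0 without pre-tumor replicate 2 and 0 with only the 2 groups fitted. Rag2, of the recombinase that joins receptor gene segments, was at the floor in every lymphoma. Pre-tumor replicate 1 was higher than replicate 2 both in these markers (8.14 and 7.02) and in Bmf (6.15 and 5.37). Dnmt3b-deficient lymphomas also had the same order in both (markers 6.04, 5.75 and 5.79, Bmf 5.65, 5.22 and 5.41 in replicates 1 to 3). In wild-type lymphomas the order was opposite (markers 5.64, 5.51 and 5.03, Bmf 4.85, 5.17 and 5.39). The part of double-positive thymocytes in the falls was not tested. In bulk samples fewer cells of a type and less RNA per cell cannot be told apart.

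Bid encodes a protein that caspase-8 cleaves, which carries the signal of death receptors to mitochondria. Its log2 level was 7.09, 7.56 and 7.08 in Dnmt3b-deficient lymphomas, 6.88, 6.94 and 6.74 in wild-type lymphomas, 7.02 and 7.08 in pre-tumor thymocytes, and 6.24, 6.26 and 6.21 in normal thymocytes. All samples labelled Teto-MYC were above all normal ones. Bid rose by 1.00 in Dnmt3b-deficient lymphomas (SE 0.13, adjusted p = 0.0017), by 0.62 in wild-type lymphomas (SE 0.13, adjusted p = 0.0128) and by 0.81 in pre-tumor thymocytes (SE 0.14, adjusted p = 0.00815), which are 2.01, 1.54 and 1.76 times the normal level.

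The pre-tumor rise of Bid was not called without pre-tumor replicate 2 (0.78, adjusted p = 0.0676), which leaves 1 sample in that group; the calls in both lymphomas passed with any 1 sample left out. Between the genotypes Bid averaged 7.24 ± 0.28 in Dnmt3b-deficient and 6.86 ± 0.10 in wild-type lymphomas (SD, n = 3 each), with no overlap. The difference of 0.39 (SE 0.13, interval 0.09 to 0.68) did not pass (adjusted p = 0.707). In order of mean, Dnmt3b-deficient lymphomas and pre-tumor thymocytes differed by 0.19 (interval -0.14 to 0.52, adjusted p = 0.787). Pre-tumor thymocytes and wild-type lymphomas were not tested against each other, and their ranges (7.02 to 7.08 and 6.74 to 6.94) did not overlap.

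**Figure D3:**
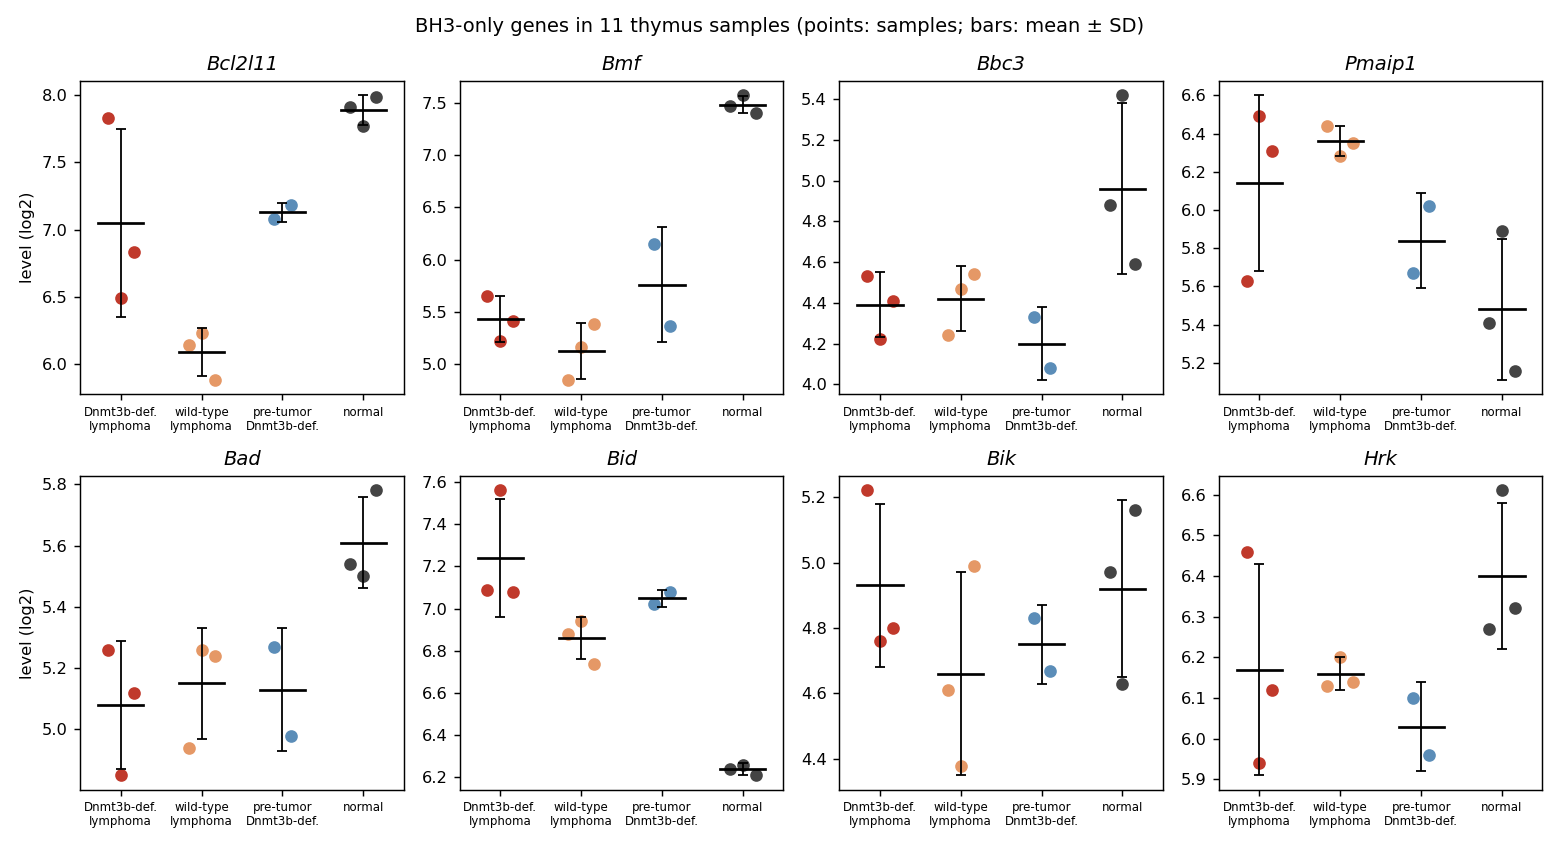
Log2 level (y axis, a separate scale for each gene) of the 8 BH3-only genes in each of the 11 samples, by group; points are samples and bars the mean ± SD (n = 3, 3, 2 and 3). Normal thymocytes stand above all other samples for Bmf and below them for Bid, and Bcl2l11 spreads from 6.49 to 7.83 in Dnmt3b-deficient lymphomas.

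Bbc3 and Pmaip1, both known targets of p53, differed from normal thymocytes in opposite directions and passed in no comparison. Bbc3, which encodes PUMA, had a log2 level of 4.53, 4.22 and 4.41 in Dnmt3b-deficient lymphomas, 4.24, 4.47 and 4.54 in wild-type lymphomas, 4.33 and 4.08 in pre-tumor thymocytes, and 4.88, 5.42 and 4.59 in normal thymocytes. Every normal sample was above every sample labelled Teto-MYC, narrowly so for normal replicate 3. The differences from normal were -0.57 (adjusted p = 0.106), -0.54 (0.119) and -0.76 (0.0604) in Dnmt3b-deficient lymphomas, wild-type lymphomas and pre-tumor thymocytes. Without normal replicate 3 all 3 passed, at -0.76 (adjusted p = 0.0377), -0.73 (0.0436) and -0.95 (0.0267). The lymphoma genotypes differed by -0.03 (interval -0.52 to 0.46).

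Pmaip1 encodes NOXA, which binds MCL1 in particular. Its log2 level was 5.63, 6.49 and 6.31 in Dnmt3b-deficient lymphomas, 6.44, 6.28 and 6.35 in wild-type lymphomas, 5.67 and 6.02 in pre-tumor thymocytes, and 5.41, 5.89 and 5.16 in normal thymocytes. Wild-type lymphomas lay above all normal samples, whereas Dnmt3b-deficient replicate 1, the sample with the high Bcl2l11, lay among them. The difference from normal was 0.66 in Dnmt3b-deficient lymphomas (adjusted p = 0.136), 0.87 in wild-type lymphomas (interval 0.26 to 1.49, adjusted p = 0.0558) and 0.36 in pre-tumor thymocytes (0.498). Without Dnmt3b-deficient replicate 1 the lymphoma differences passed, at 0.92 (adjusted p = 0.0335) and 0.87 (0.0251). The wild-type one also passed without normal replicate 2 (1.08, adjusted p = 0.0421). Between the genotypes the difference was -0.21 (interval -0.83 to 0.40, adjusted p = 1), and 0.05 without Dnmt3b-deficient replicate 1.

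Bad encodes a protein that is kept inactive in the cytosol by phosphorylation in the presence of growth factors. Its log2 level was 5.26, 4.85 and 5.12 in Dnmt3b-deficient lymphomas, 4.94, 5.26 and 5.24 in wild-type lymphomas, 5.27 and 4.98 in pre-tumor thymocytes, and 5.54, 5.50 and 5.78 in normal thymocytes. Normal samples were above all others. Bad fell by 0.53 in Dnmt3b-deficient lymphomas (SE 0.15, adjusted p = 0.039), and the differences of -0.46 in wild-type lymphomas (0.0666) and -0.48 in pre-tumor thymocytes (0.0813) did not pass. The call was lost without normal replicates 1, 2 or 3 (0.0774, 0.0697, 0.114), wild-type replicates 2 or 3 (0.0558, 0.0563) or Dnmt3b-deficient replicates 2 or 3 (0.115, 0.0796). It was also lost with replicate number as a block (0.0654). Between the genotypes Bad differed by -0.07 (interval -0.41 to 0.27).

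Hrk and Bik passed in no comparison. Hrk, which binds BCL-XL and is best known from dying neurons, ranged from 5.94 to 6.46 in Dnmt3b-deficient lymphomas, 6.13 to 6.20 in wild-type lymphomas, 5.96 to 6.10 in pre-tumor thymocytes and 6.27 to 6.61 in normal thymocytes. Its differences from normal were -0.23, -0.24 and -0.37 in that order (adjusted p = 0.366, 0.306 and 0.157), and the genotypes differed by 0.02 (interval -0.31 to 0.34). Bik, a protein of the endoplasmic reticulum, ranged from 4.76 to 5.22, 4.38 to 4.99, 4.67 to 4.83 and 4.63 to 5.16 in the same order of groups, so that all groups overlapped the normal one. Its differences from normal lay between -0.26 and 0.01 (adjusted p = 0.478 to 1), and the genotypes differed by 0.27 (interval -0.22 to 0.75, adjusted p = 0.934).

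Dnmt3b-deficient lymphomas and pre-tumor thymocytes share a genotype and differ in stage and sorting; between them the 8 genes differed by -0.34 (Bmf) to 0.30 (Pmaip1), with a median of 0.16. All 8 overlapped between these groups, where 20.9% of all probe sets did not. For Bcl2l11 the difference was -0.08 with an interval of -0.88 to 0.73, so with 2 and 3 samples differences of either sign within that interval are not excluded. Against normal thymocytes, 4, 7 and 6 of the 8 genes had no overlap in Dnmt3b-deficient lymphomas, wild-type lymphomas and pre-tumor thymocytes (50%, 87.5% and 75%), beside 32.4%, 34.9% and 44.7% of all probe sets.

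Of the genes most like each BH3-only gene over the 11 samples, among 6505 named probe sets with a span of at least 1 log2 unit, the closest to Bmf were Kcnh2, Hs6st1 and Ripor1 (r = 0.991, 0.99 and 0.99). For Bid they were Myef2, Ino80 and Clip1 (0.978, 0.975 and 0.97), and for Bcl2l11 Aldh7a1, Slc38a2 and Zbtb8a (0.956, 0.937 and 0.935). For Bbc3 they were Rilp, Maged2 and Rbm15b (0.949, 0.942 and 0.938) and for Pmaip1 Ptpn3, Pigg and Arl14ep (0.938, 0.908 and 0.894). These correlations are descriptions over samples that share their group.

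Other genes of the pathway were read in the same fit. Of 6 other lists with 55 genes of the pathway, 45 were measured through a single symbol and the other 10 were not analysed here. Against normal thymocytes 13 of 45 changed in Dnmt3b-deficient lymphomas (4 higher, 9 lower, 28.9%), 14 in wild-type lymphomas (3 higher, 11 lower, 31.1%) and 13 in pre-tumor thymocytes (5 higher, 8 lower, 28.9%), beside the 20.2%, 19.9% and 19.6% of all probe sets; the difference between these shares was not tested. With each sample left out in turn, 8, 7 and 2 of these calls held throughout. Without pre-tumor replicate 2, which leaves 1 sample, the pre-tumor counts of 5 of the 6 lists fell to 0. None of the 45 passed between the lymphoma genotypes or between Dnmt3b-deficient lymphomas and pre-tumor thymocytes, beside 0.00691% and 0.0691% of all. In these comparisons 8 and 13 of the 45 had an unadjusted p under 0.05, beside 6.3% and 9.43% of all probe sets.

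Of 6 measured survival genes 3 fell in each of the 3 groups labelled Teto-MYC. Of all probe sets 10.5%, 10.3% and 9.88% were lower in Dnmt3b-deficient lymphomas, wild-type lymphomas and pre-tumor thymocytes. Bcl2a1c lay at the floor in all groups and Bcl2l10 had group means of 3.32 to 3.43, so these genes had little or no room to fall. Bcl2l1, which encodes BCL-XL, had a mean log2 level of 5.27 ± 0.04 in Dnmt3b-deficient lymphomas, 5.22 ± 0.09 in wild-type lymphomas and 9.12 ± 0.10 in normal thymocytes (SD, n = 3 each), and of 6.34 in pre-tumor thymocytes (n = 2). It fell in Dnmt3b-deficient lymphomas, wild-type lymphomas and pre-tumor thymocytes, with differences of -3.85, -3.90 and -2.78 (adjusted p = 0.000112, 0.000216 and 0.00111). Mcl1, which encodes the main partner of NOXA, fell as well, with differences of -1.20, -0.95 and -1.01 (0.00049, 0.0012 and 0.0023). Bcl2 differed by -1.46 and -0.97 in Dnmt3b-deficient and wild-type lymphomas (0.000673 and 0.00319). Its pre-tumor difference of -0.53 (0.0493) lost the call without any 1 sample other than pre-tumor replicate 1, at 0.0607 to 0.282. Bcl2l1 and Mcl1 passed in all fits with 1 sample left out.

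Among 13 measured regulators of BH3-only genes, 2 changed in each lymphoma and 3 in pre-tumor thymocytes. The shares of all probe sets called were 20.2% in Dnmt3b-deficient lymphomas, 19.9% in wild-type lymphomas and 19.6% in pre-tumor thymocytes. Foxo3, a transcription factor known to switch on Bcl2l11 and Bbc3, fell in all 3, with differences of -1.27 in Dnmt3b-deficient lymphomas (adjusted p = 0.00249), -1.18 in wild-type lymphomas (0.00368) and -0.92 in pre-tumor thymocytes (0.0164). The pre-tumor call was lost without pre-tumor replicate 2 (0.123). Mapk8, the stress kinase JNK1 that phosphorylates BIM and BMF, rose by 0.76, 0.81 and 0.98 in the same order (0.0389, 0.0322 and 0.0241). The first call held without normal replicate 3 or Dnmt3b-deficient replicate 3 and was lost without any other sample (0.0503 to 0.111). The second was lost without normal replicates 1 or 2 or any wild-type lymphoma (0.064 to 0.102), and the third without normal replicates 1 or 2 or pre-tumor replicate 2 (0.0501 to 0.181).

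Of 4 other proteins with a BH3 domain, 1 changed in each group labelled Teto-MYC, beside 20.2%, 19.9% and 19.6% of all probe sets. It was Huwe1, a ubiquitin ligase that marks MCL1 for degradation, which rose by 1.69, 1.53 and 1.60 in Dnmt3b-deficient lymphomas, wild-type lymphomas and pre-tumor thymocytes (adjusted p = 0.00197, 0.00331 and 0.00564). The pre-tumor call was lost without pre-tumor replicate 2 (0.0521), and a second gene of the list passed there without Dnmt3b-deficient replicates 1 or 2.

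Of 12 measured genes of the apoptosome and caspases, 5 changed in Dnmt3b-deficient lymphomas, 3 in wild-type lymphomas and 4 in pre-tumor thymocytes. The shares of all probe sets called were 20.2%, 19.9% and 19.6% in that order. Casp6, an effector caspase, fell, with differences of -1.28 and -1.47 in Dnmt3b-deficient and wild-type lymphomas (adjusted p = 0.00217 and 0.0015). In pre-tumor thymocytes Casp6 differed by -0.91 (0.0157), and by -0.96 to -0.87 with 1 sample left out. Aifm1, a mitochondrial flavoprotein released in some forms of death, rose by 1.31 and 1.05 in Dnmt3b-deficient and wild-type lymphomas (0.0089 and 0.0229). The second call was lost without any 1 of the wild-type lymphomas (0.0766, 0.0517 and 0.0621) or without normal replicates 2 or 3 (0.0804 and 0.0558). The pre-tumor rise of Aifm1 was 1.09 (0.0306), and 0.79 to 1.4 with 1 sample left out. That call was lost without normal replicates 2 or 3. The count in wild-type lymphomas was 5 without Dnmt3b-deficient replicate 1. That in pre-tumor thymocytes was 1 without normal replicate 2, 2 without normal replicate 3 and 0 without pre-tumor replicate 2.

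The pore-forming effector Bak1 fell, with differences of -0.58 in wild-type lymphomas (adjusted p = 0.021) and -0.68 in pre-tumor thymocytes (0.0185). The first call was lost without normal replicates 1 or 2 (0.0668, 0.0711) or any wild-type replicate (0.0695, 0.0509, 0.0578), and the second without normal replicates 1 or 2 (0.0529, 0.0574) or pre-tumor replicate 2 (0.151). Of all probe sets 20.2%, 19.9% and 19.6% were called in Dnmt3b-deficient lymphomas, wild-type lymphomas and pre-tumor thymocytes. Of 8 measured partners and modifiers of BH3-only proteins, 2, 4 and 1 changed in the same order. These counts ranged over 0 to 2, 0 to 4 and 0 to 1 with 1 sample left out, and each fell to 0 without normal replicate 2.

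**Figure D4:**
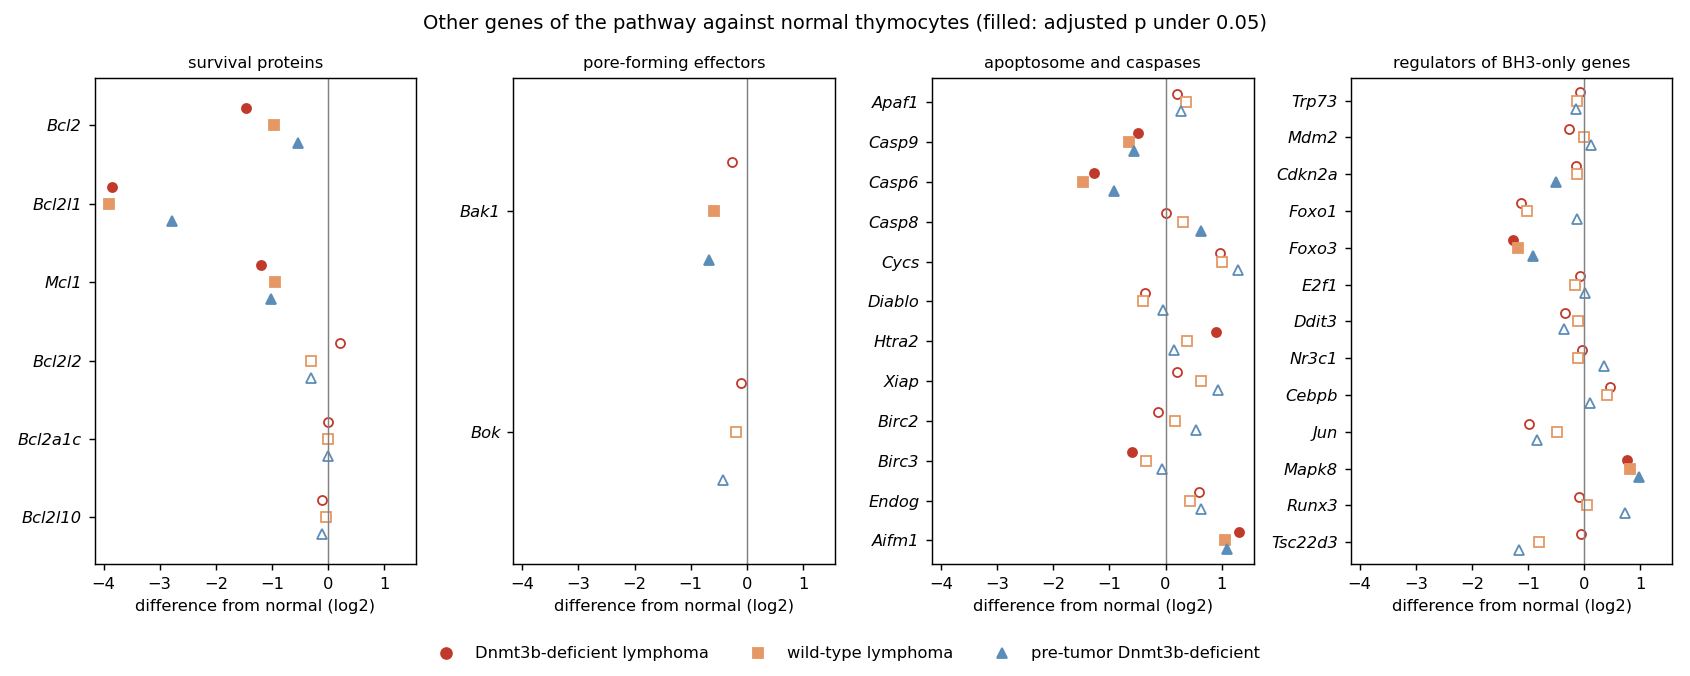
Difference from normal thymocytes (x axis, log2) of the measured genes (rows) of 4 lists (panels), in Dnmt3b-deficient lymphomas (circles), wild-type lymphomas (squares) and pre-tumor thymocytes (triangles); filled symbols had a limma adjusted p under 0.05. Bcl2l1 stands farthest left, at -3.85, -3.90 and -2.78.

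Markers of other cell types varied between samples. Their counts of calls against normal thymocytes stand beside the following shares of all probe sets. In Dnmt3b-deficient lymphomas, wild-type lymphomas and pre-tumor thymocytes 10.5%, 10.3% and 9.88% were called lower. In the same order 9.7%, 9.58% and 9.69% were called higher. The mean of 13 macrophage and monocyte markers was 4.55, 5.25 and 4.45 in Dnmt3b-deficient lymphomas, 5.90, 6.29 and 4.82 in wild-type lymphomas, 4.49 and 4.69 in pre-tumor thymocytes, and 5.27 to 5.44 in normal thymocytes. That of 9 neutrophil markers was 6.91, 6.79 and 4.23 in wild-type lymphomas. Wild-type replicate 3, low in both lists, had the lowest Bcl2l11 (5.88) and Bid (6.74) of its group. Its levels of Bmf (5.39), Bbc3 (4.54) and Bik (4.99) were the highest of that group, and the other members lay between. Dnmt3b-deficient replicate 2 had the highest means of both lists in its group (5.25 and 6.40). That sample had the lowest Bcl2l11 (6.49), Bmf (5.22), Bbc3 (4.22), Bad (4.85), Bik (4.76) and Hrk (5.94) of its group. Its levels of Bid (7.56) and Pmaip1 (6.49) were the highest of that group. The 7 measured B cell markers averaged 4.27 to 4.47, 3.97 to 4.49, 4.57 to 5.01 and 4.43 to 4.64 in Dnmt3b-deficient lymphomas, wild-type lymphomas, pre-tumor and normal thymocytes. The 8 dendritic cell markers averaged 5.15 to 5.43, 5.53 to 5.99, 5.37 to 5.60 and 5.88 to 6.21 in the same order, and 3, 0 and 4 of them were called lower than in normal thymocytes. The pre-tumor count was 0 without normal replicate 1 or either pre-tumor replicate, 1 without normal replicate 2, and 2 without wild-type replicates 1 or 2 or Dnmt3b-deficient replicate 3. The 10 markers of stroma and endothelium averaged 5.48 to 5.67, 5.27 to 5.62, 5.31 to 5.41 and 5.76 to 5.82, below normal in every other sample, and 2, 4 and 2 of them were called lower. With 1 sample left out these counts ranged over 0 to 2, 1 to 3 and 0 to 4; the first 2 were lowest without normal replicate 2, and the pre-tumor one was 0 without pre-tumor replicate 2 and 4 without Dnmt3b-deficient replicate 3. Of the macrophage and monocyte markers 3 were called lower in each group, and 1 higher in wild-type lymphomas. No neutrophil marker was called in limma with all groups and samples fitted (0 of 9 at an unadjusted p under 0.05 in each). In wild-type lymphomas 2 were called without wild-type replicate 3. In pre-tumor thymocytes 5 were called with only the 2 groups fitted. Of the B cell markers 0, 0 and 1 were called in Dnmt3b-deficient lymphomas, wild-type lymphomas and pre-tumor thymocytes, the last lost without normal replicates 1 or 2, any wild-type lymphoma, Dnmt3b-deficient replicate 3 or pre-tumor replicate 1. Without Dnmt3b-deficient replicate 1 the count in wild-type lymphomas was 1. Their part in the levels of the BH3-only genes was not tested.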

How the data were processed

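Levels were measured on Affymetrix whole-transcript arrays in 11 thymus samples. The authors deposited 1 log2 value per probe set and array; Partek and RMA appear in the submitters' processing notes, with no version and no order. No value lies below 3.32, and between 23.6% and 25.7% of each array's values equal this floor, which the sources used here do not describe; arrays have no read depth, and their number limits the precision. No further normalization was applied. Of 35512 probe sets, 6573 with IDs below the lowest one with a gene were left out as probable controls. Of the remaining 28939, 21789 have 1 gene symbol, 1621 several and 5529 none. Gene names came from the annotation of the platform and RefSeq (GRCm38.p6), with 0 symbols updated.

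All 4 groups entered 1 limma fit (version 3.58.1, R 4.3.3) that gives each group its mean, moderated by eBayes with no trend, with 7 residual and 0.46 prior degrees of freedom, and 5 comparisons were made. The fit was tested on simulated data. Groups came from the sample titles. All 8 members are described; from other lists up to 4 genes past the threshold are named by the size of the difference, and the 3 genes with the highest Pearson r over samples are named for members with a span of at least 1 log2 unit. Where a list has several probe sets for a gene the brightest was used. The members and lists were chosen with earlier results of these data known. Alternatives covered normalization, scaling, moderation, filters, the groups fitted, a fold threshold of 2, a replicate block and leaving out each sample.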

Additional observations from a re-analysis of the deposited data

How the results depend on the processing

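No member passed between the lymphoma genotypes, or between Dnmt3b-deficient lymphomas and pre-tumor thymocytes, in any of the 21 alternatives. The count of 3 in wild-type lymphomas against normal became 5 without probe sets at the floor on all arrays and 5 without probe sets below the median of mean level, where fewer are tested. The count of 3 in Dnmt3b-deficient lymphomas became 5 without these dimmer probe sets and ranged from 2 to 5 with 1 sample left out, the highest without Dnmt3b-deficient replicate 1. The count of 2 in pre-tumor thymocytes became 1 at a fold change of at least 2 and ranged from 1 to 3 with 1 sample left out, the lowest without pre-tumor replicate 2. Bbc3 has no value without these dimmer probe sets, as it lies in it. Of 835 member differences under an alternative, 786 kept direction and call, 15 lost it, 19 gained it and 15 changed sign, none of these called.

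Changes of sign were Hrk between the genotypes after median centring (-0.01) and those with 1 sample left out. Between the genotypes these ranged from -0.12 to 0.06 (Bbc3), -0.39 to 0.05 (Pmaip1), -0.18 to 0.04 (Bad) and -0.13 to 0.13 (Hrk), and for Bik in Dnmt3b-deficient lymphomas against normal from -0.14 to 0.13. Between Dnmt3b-deficient lymphomas and pre-tumor thymocytes they ranged from -0.47 to 0.20 (Bcl2l11), -0.73 to 0.06 (Bmf), -0.19 to 0.09 (Bad) and 0.00 to 0.26 (Hrk). The cause was not tested. Same-numbered samples deviated together from their group means at r over 0.1 in 3 of 15 pairs (-0.331 to 0.322). Groups of 2 or 3 samples are too small for this to show whether replicate numbers pair the samples. With the replicate block the counts were 3, 2 and 2 in wild-type lymphomas, Dnmt3b-deficient lymphomas and pre-tumor thymocytes against normal. Alternatives for single genes of the other lists were added after seeing the data; of their 840 values, 648 kept the call and 192 lost it. Of 1470 list counts under an alternative, 161 moved, by over 1.5 times or to or from 0.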
